A study of Homo sapiens with 30 samples.

Results

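The 10 genes described here encode transcription factors and a coactivator that run the B lineage: *EBF1*, *PAX5*, *POU2AF1*, *POU2F2*, *SPIB*, *BACH2*, *BCL6*, *IRF4*, *IRF8* and *PRDM1*. They were chosen by symbol among 19775 genes on the Affymetrix HG U133 Plus 2.0 array, where the platform annotation gives them 29 of 54613 tested probe sets. The probe set that was brightest on average across the 30 arrays stands for its gene, and any others serve as a check. All values are log2 expression values, so a difference of 1 is a 2-fold change, and 3 arrays were made per condition.

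The cells are LOUCY, a human line of early thymic progenitor acute lymphoblastic leukemia (ETP-ALL). Bulk lines were made from them by lentiviral transduction and flow sorting. LOUCY cells express their own *MEF2C*, owing to a chromosomal rearrangement near that gene, and have no *NOTCH1* or *FBXW7* mutation. The LOUCY_MEF2C-BFP line carries a doxycycline-inducible (dox-inducible), codon-optimized *MEF2C* without its β TAD domain, joined to BFP. It was grown in medium, on OP9-GFP or on OP9-DL1, each with dox and without. OP9 is a mouse bone marrow stroma, and OP9-DL1 displays the Notch ligand Delta-like 1. A line with inducible intracellular NOTCH1 (ICN) and a line with both MEF2C and ICN were grown in medium, with dox and without. The study states 0.5 μg/mL dox and, for the MEF2C line, 24 hours of induction, while the times for the other lines and for coculture are not given in the sources used here. No line without a transgene received dox, so effects of dox and of the transgene cannot be told apart. Whether the 3 arrays of a condition are separate cultures is not stated, and the p-values therefore cover the variation among these arrays alone, possibly a technical one.

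In B cell development EBF1 switches on early B lineage genes and, with them, PAX5, which then holds cells to the B lineage and shuts off T cell and myeloid genes. POU2AF1, a coactivator, binds POU2F2 on the octamer motif of immunoglobulin promoters, and SPIB, an ETS factor, pairs with IRF4 or IRF8 on composite sites. BACH2 and BCL6 are repressors that keep the activated B cell from becoming a plasma cell. IRF4 and PRDM1 drive that step. Several of these factors also act outside the B lineage: BCL6 and BACH2 in T cells, IRF8 in monocytes and dendritic cells, and PRDM1 in effector T cells. Notch signaling directs early lymphoid progenitors toward T cells and away from B cells.

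The promoters of *EBF1*, *IRF8*, *BCL6* and *POU2F2* are shown as examples of members that were called with an induced transgene. Each runs from 250 bases before to 50 bases after a gene start in RefSeq (GRCh38.p14), 5′ to 3′ on the strand of the gene. Of the 10 members 9 had an entry, with 12 windows in all, and *POU2AF1* had none. Capitals mark matches on either strand to the 6 motifs searched.
EBF1 (chr5:159097907-159098206, minus strand): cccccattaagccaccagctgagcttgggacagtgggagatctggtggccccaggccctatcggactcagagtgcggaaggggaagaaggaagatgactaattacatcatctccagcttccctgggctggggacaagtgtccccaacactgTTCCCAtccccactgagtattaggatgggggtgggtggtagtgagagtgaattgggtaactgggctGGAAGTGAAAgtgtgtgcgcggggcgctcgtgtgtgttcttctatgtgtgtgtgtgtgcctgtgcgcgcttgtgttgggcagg
IRF8 (chr16:85902580-85902879, plus strand): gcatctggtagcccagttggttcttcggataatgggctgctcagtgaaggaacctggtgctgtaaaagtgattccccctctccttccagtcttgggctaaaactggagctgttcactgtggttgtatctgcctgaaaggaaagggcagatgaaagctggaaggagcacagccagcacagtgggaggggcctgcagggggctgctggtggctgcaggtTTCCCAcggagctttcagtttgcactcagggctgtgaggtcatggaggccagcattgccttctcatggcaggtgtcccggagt
BCL6 (chr3:187745419-187745718, minus strand): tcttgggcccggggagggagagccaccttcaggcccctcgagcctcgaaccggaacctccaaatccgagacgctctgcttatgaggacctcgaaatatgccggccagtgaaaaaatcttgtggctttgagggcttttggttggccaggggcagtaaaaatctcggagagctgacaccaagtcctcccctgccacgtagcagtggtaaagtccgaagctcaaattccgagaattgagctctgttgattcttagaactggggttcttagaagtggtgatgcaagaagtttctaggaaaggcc
POU2F2 (chr19:42132397-42132696, minus strand): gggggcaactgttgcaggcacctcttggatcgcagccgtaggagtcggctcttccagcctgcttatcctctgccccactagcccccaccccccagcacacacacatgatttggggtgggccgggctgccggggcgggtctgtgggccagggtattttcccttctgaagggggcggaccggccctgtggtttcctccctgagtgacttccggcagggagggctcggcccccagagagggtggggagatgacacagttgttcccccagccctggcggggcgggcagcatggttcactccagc
The motifs were TGGGAA, the core read by RBPJ, the DNA-binding partner of ICN, the octamer ATGCAAAT, the EBF palindrome TCCCNNGGGA, the ETS-IRF composite GGAANNGAAA, the IRF element GAAANNGAAA and the MEF2 consensus. The RBPJ core was in 4 of the 12 windows, belonging to 3 members, against 24% of all 35116 promoter windows. It lies at bases 152 to 157 of the *EBF1* window and at bases 218 to 223 of the *IRF8* window, on the opposite strand in both, and also in the window of *IRF4*. The window of a second *IRF8* start overlaps the one shown and holds the same match. The ETS-IRF composite was in the *EBF1* window alone among the members, at bases 218 to 227, and in 2.82% of all windows. The MEF2 consensus, the octamer, the EBF palindrome and the IRF element had no match in the 12 windows and were in 2.99%, 1.77%, 1.21% and 3.57% of all windows. The windows of *BCL6* and *POU2F2* hold none of the 6 motifs. A match or its lack describes these letters in this window, not binding of a factor.

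The arrays of a condition correlated at 0.990 to 0.998, and their medians ran from 4.75 to 4.84. The condition on OP9-GFP without dox had the widest spread between its arrays, with an SD of differences of up to 0.343, and results that rest on it are named below. Of the T cell markers, *CD3D* was at 11.1 to 13.0 as a mean over conditions, and of the B cell markers *MS4A1* at 3.7 to 4.3. The 7 T cell markers averaged 7.57 to 8.97 per array, so *CD3D* lay above its list. The 15 measured B lineage genes known as targets of EBF1 or PAX5 averaged 5.42 to 5.84 per array. The 3 *MEF2C* probe sets moved in different directions with MEF2C induction in medium, by 0.53, -1.08 and -1.04, the first being a rise and the others falls. With both transgenes induced they moved by 0.66, -2.21 and -2.28. Their differences from MEF2C alone were 0.14, -1.13 and -1.23 (adjusted p = 0.783, 4.9e-12 and 1.3e-10 in limma). What part this has in other differences between both transgenes and MEF2C alone was not tested. The study tells a probe set that also covers the cloned cDNA from others that lie outside it and read the cells' own gene. Their IDs are not named in the sources used here. It also reports that induced MEF2C lowers expression of the cells' own *MEF2C*. Of 9 listed Notch targets 3 rose, none fell and 6 were not called with ICN induction, with a median log2 fold change of 0.11. Among them *HEY1* rose by 4.96 (adjusted p = 3.7e-21 from limma). Without dox the 9 Notch targets averaged 6.06 to 6.20 in the ICN line and 5.55 to 5.63 in the line with both constructs. In the MEF2C line in medium they averaged 4.97 to 5.18 without dox. Dox responses of the lines with ICN thus start from a higher average of these genes. In bulk RNA, fewer cells of a type and less RNA per cell cannot be told apart.

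**Figure D1:**
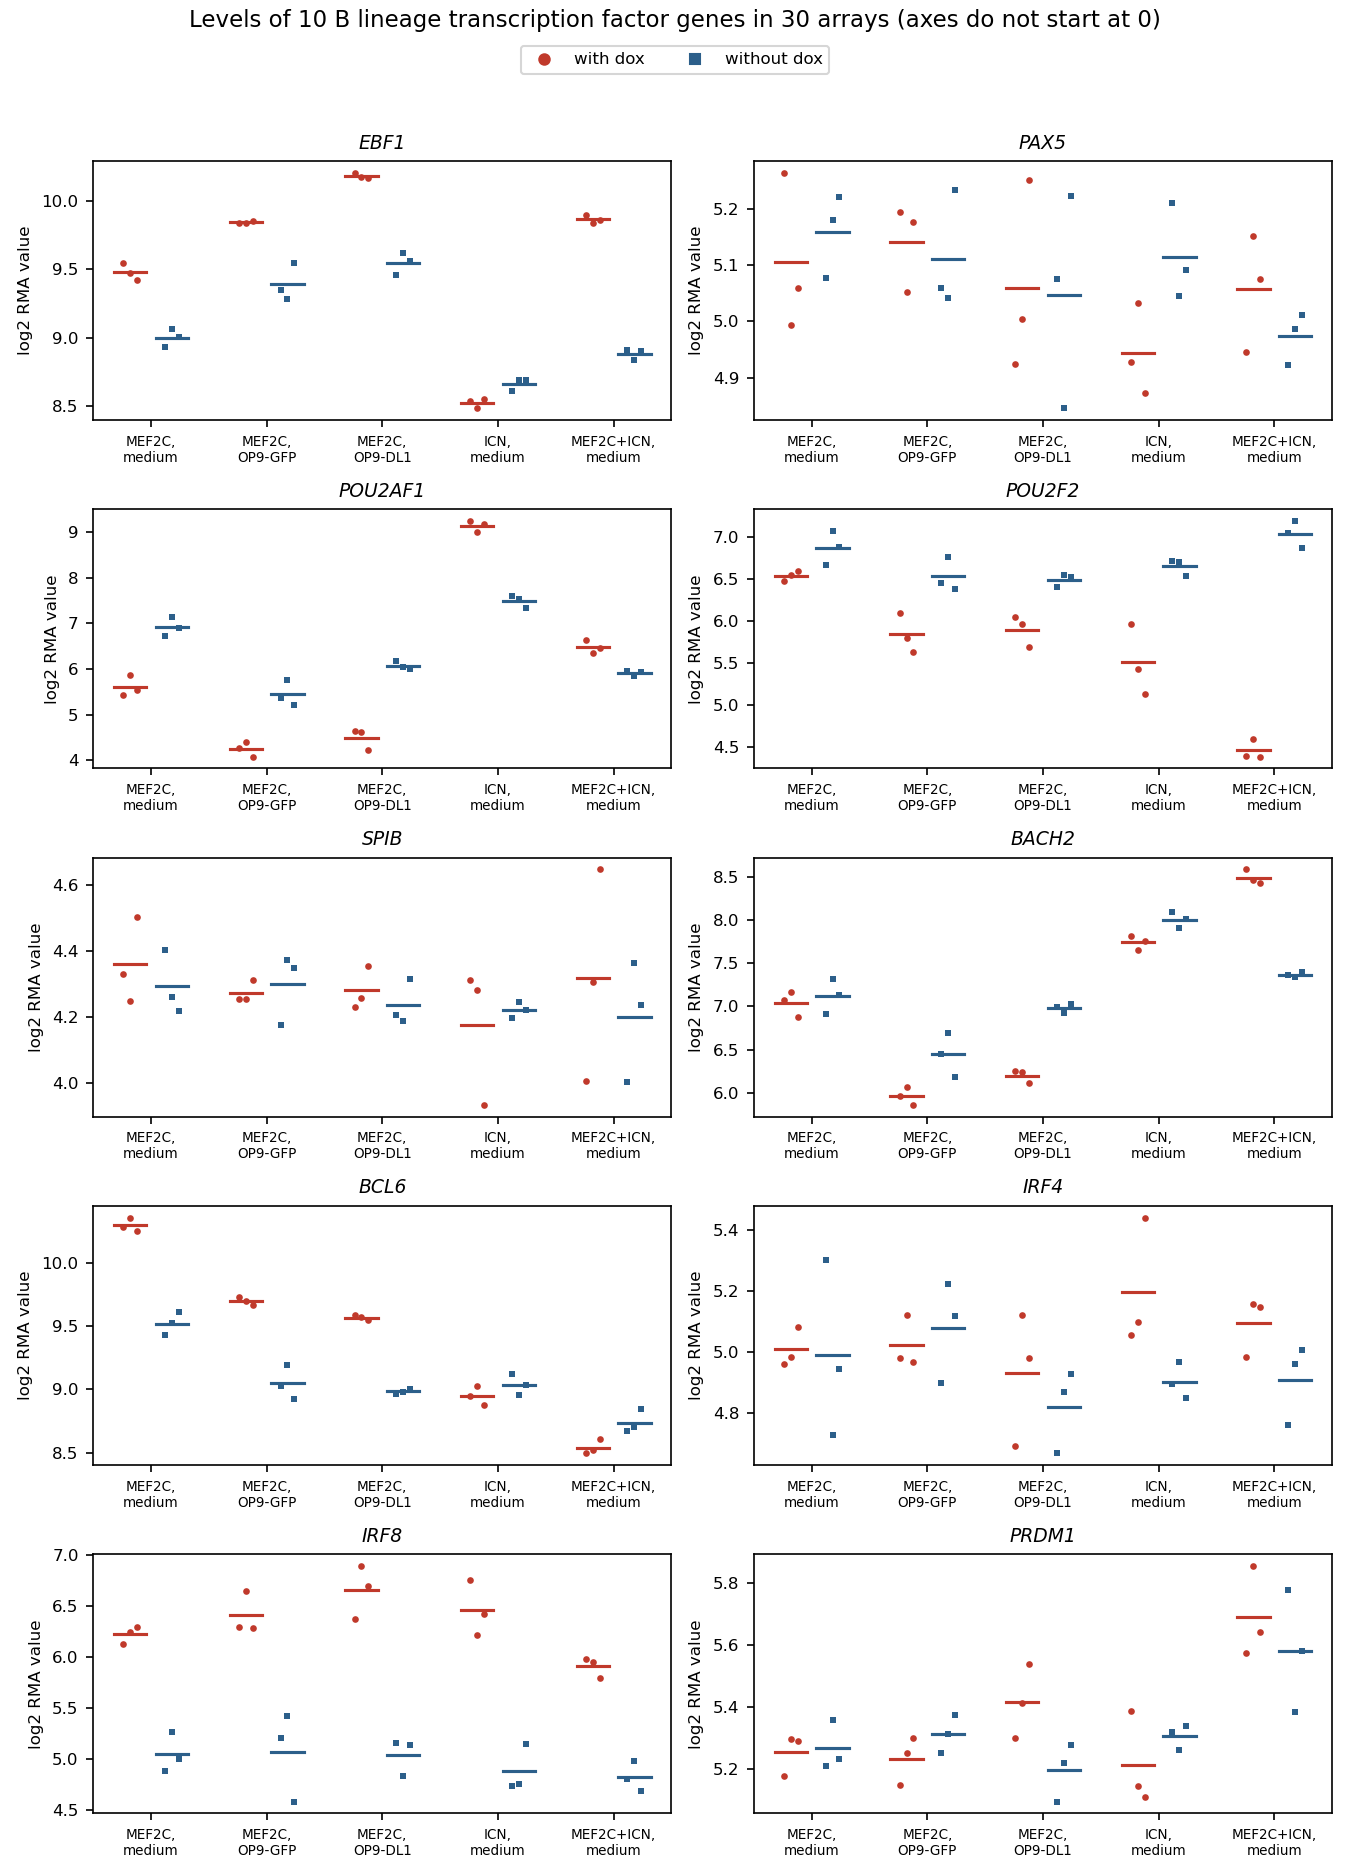
Log2 RMA values (vertical axis, a range of its own per gene) of 10 genes in 30 arrays, by line and culture (horizontal axis), with 1 point per array and a bar at the mean of 3 arrays, red with dox and blue without. All 15 arrays with dox lie above all 15 without for IRF8, POU2AF1 lies lower with dox in the MEF2C line and higher in the ICN line, and PAX5, SPIB and IRF4 vary within narrow ranges.

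With MEF2C induced, *EBF1*, *BCL6* and *IRF8* rose in each of the 3 cultures and *POU2AF1* fell in each. At their brightest probe sets *PAX5*, *SPIB*, *IRF4* and *PRDM1* passed the test in none. Another *PRDM1* probe set rose by 0.94 on OP9-DL1. *POU2F2* and *BACH2* passed as falls on both stromas and did not pass in medium, where 4 of the 7 *POU2F2* probe sets fell. A gene is called changed at an adjusted p under 0.05 in limma's test. Of the 10 genes 3 rose and 1 fell in medium, where 8.6% of all 19775 genes were called. On OP9-GFP 3 rose and 3 fell (7.61% of all genes), and on OP9-DL1 3 rose and 3 fell (5.9%). Over the 3 cultures, with 9 arrays with dox against 9 without, 3 rose and 2 fell (7.2%). In that comparison the cultures have no term of their own, as in the study's methods, so their differences count as spread. The median log2 fold change of the 10 genes there was 0.03, beside -0.01 over all genes.

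*EBF1*, which specifies the B lineage, was higher with MEF2C in every culture. In medium it was at 9.54, 9.47 and 9.42 with dox, against 8.93, 9.06 and 9.01 without. On OP9-GFP it was at 9.84, 9.84 and 9.85 with dox, against 9.35, 9.28 and 9.55 without, and on OP9-DL1 at 10.20, 10.17 and 10.17 with dox, against 9.46, 9.62 and 9.56 without. The arrays with and without dox did not overlap in any of these cultures. The log2 fold changes were 0.48 in medium (SE 0.063, adjusted p = 8.4e-06), 0.45 on OP9-GFP (SE 0.063, adjusted p = 2.1e-05) and 0.63 on OP9-DL1 (SE 0.063, adjusted p = 1.1e-07). When the OP9-GFP arrays were fitted alone, the change there had an adjusted p of 0.067. Over the 3 cultures all 4 *EBF1* probe sets rose, by 0.44 to 0.80. On OP9-GFP 3 of the 4 were called, and the lowest change was 0.20.

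*EBF1* was also higher on stroma. OP9-GFP stood above medium by 0.36 with dox (adjusted p = 1.4e-04) and by 0.39 without (adjusted p = 6.0e-05, and 0.071 when these 6 arrays were fitted alone). OP9-DL1 stood above OP9-GFP by 0.34 with dox (adjusted p = 0.0039), and by 0.16 without (adjusted p = 0.316), which did not pass. The rise on OP9-DL1 with dox was seen in 2 of 4 probe sets. It had an adjusted p of 0.054 when the 6 arrays were fitted alone and 0.22 for the mean over the probe sets, and the probe set of highest variance had a value of -0.24. The 15 stromal markers averaged 4.54 to 4.63 on OP9-GFP with dox, 4.58 to 4.60 on OP9-DL1 with dox and 4.52 to 4.60 in medium with dox. Without dox they averaged 4.76 to 4.88 on OP9-GFP and 4.73 to 4.85 in medium, and on OP9-GFP against medium 2 rose and 2 fell with dox, and 2 rose and 3 fell without. The collagen gene *COL1A2* was among those that rose without dox, by 0.80, and did not pass with dox (0.44). How far RNA of mouse stroma is read by these human probe sets was not tested.

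*EBF1* did not pass with ICN alone and had its largest dox response with both transgenes. It was at 8.54, 8.49 and 8.56 with ICN induced, against 8.61, 8.69 and 8.69 without dox (-0.14, SE 0.063, adjusted p = 0.179). With MEF2C and ICN induced together it was at 9.90, 9.84 and 9.86, against 8.91, 8.84 and 8.90 without dox. That is a log2 fold change of 0.98 (SE 0.063, adjusted p = 5.0e-12), or 1.97-fold. It exceeded the change with MEF2C alone by 0.50 (SE 0.09, adjusted p = 3.2e-04) and that with ICN alone by 1.12 (SE 0.09, adjusted p = 1.1e-09), both as tests of the difference. The first of these was called in 2 of the 4 probe sets and the second in all 4. Without dox *EBF1* was lower in the ICN line than in the MEF2C line by 0.33 (adjusted p = 3.1e-04), and 2 of its 4 probe sets gave that call. From high to low, the condition means ran from 10.18 on OP9-DL1 with dox to 8.53 with ICN induced, and the arrays of 3 of the 9 neighbouring pairs of conditions overlapped.

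*PAX5*, the commitment factor of the B lineage, and *SPIB* changed in none of the 16 comparisons. *PAX5* ranged from 4.85 to 5.26 over the 30 arrays and its 10 condition means spanned 0.21. In medium it was at 5.26, 4.99 and 5.06 with MEF2C induced, against 5.08, 5.18 and 5.22 without dox, so the arrays overlapped. With ICN it was at 4.93, 5.03 and 4.87 with dox, against 5.21, 5.04 and 5.09 without, which did not overlap and did not pass (adjusted p = 0.303). *SPIB* ranged from 3.93 to 4.65 with a span of 0.19. The arrays of all 9 neighbouring pairs of conditions overlapped for both. Their log2 fold changes upon dox ran from -0.17 (ICN, 95% confidence interval -0.37 to 0.027) to 0.08 (MEF2C and ICN, -0.11 to 0.28) for *PAX5*, and from -0.05 (-0.29 to 0.20) to 0.12 (-0.13 to 0.37) for *SPIB* in the same lines. The second probe set of each was not called either. The values carry no detection call, so they do not settle whether these genes are transcribed at a low level.

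*POU2AF1*, the B cell coactivator known as OBF-1, had the widest range of the 10 genes, and its direction with dox differed between the MEF2C and ICN lines. In medium it was at 5.43, 5.87 and 5.53 with MEF2C induced, against 6.71, 7.13 and 6.90 without dox. On OP9-GFP it was at 4.27, 4.40 and 4.08 with dox, against 5.36, 5.77 and 5.21 without, and on OP9-DL1 at 4.63, 4.62 and 4.22 with dox, against 6.17, 6.04 and 6.01 without. No arrays overlapped within a culture, and it fell by 1.30 in medium, by 1.20 on OP9-GFP and by 1.58 on OP9-DL1 (SE 0.14 each, adjusted p = 2.8e-07, 1.3e-06 and 1.3e-08). The ICN line moved the other way. *POU2AF1* was at 9.25, 9.01 and 9.17 with ICN induced, against 7.59, 7.53 and 7.33 without dox, a rise of 1.66 (SE 0.14, adjusted p = 1.7e-09), or 3.16-fold.

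With both transgenes induced *POU2AF1* was at 6.62, 6.36 and 6.45, against 5.95, 5.84 and 5.93 without dox. This smaller rise of 0.57 (SE 0.14, adjusted p = 0.005) lay between the responses to each transgene. It stood above the response to MEF2C alone by 1.88 (SE 0.2, adjusted p = 1.2e-07) and below that to ICN alone by 1.08 (SE 0.2, adjusted p = 4.7e-04). The cultures also differed: OP9-GFP lay below medium by 1.36 with dox and by 1.47 without (adjusted p = 8.7e-08 and 2.8e-08). OP9-DL1 stood above OP9-GFP by 0.63 without dox (adjusted p = 0.017) and by 0.24 with dox, which did not pass (adjusted p = 0.653). The first of these calls rests on single arrays, since leaving out any 1 of 4 of the 6 arrays raised its adjusted p to between 0.054 and 0.104, and it was 0.26 when the 6 arrays were fitted alone. Without dox *POU2AF1* was lower in the line with both constructs than in the MEF2C line by 1.01 (adjusted p = 5.3e-06) and higher in the ICN line by 0.57 (adjusted p = 0.0038). The second probe set of *POU2AF1* stayed at 2.27 to 2.58 as condition means and was called in none of the 16 comparisons. For the mean of both probe sets the rise with both transgenes was 0.27 (adjusted p = 0.075) and the difference of the ICN line from the MEF2C line without dox was 0.21 (adjusted p = 0.131), neither of which passed.

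*POU2F2*, also known as Oct-2, the octamer factor that POU2AF1 binds, fell most where both transgenes were induced. There it was at 4.40, 4.60 and 4.39 with dox, against 7.05, 7.19 and 6.87 without, and it fell by 2.58 (SE 0.16, adjusted p = 1.3e-12), or 5.97-fold. With ICN alone it was at 5.97, 5.43 and 5.14 with dox, against 6.72, 6.71 and 6.54 without, and it fell by 1.14 (SE 0.16, adjusted p = 5.8e-06). With MEF2C alone in medium it was at 6.48, 6.55 and 6.59 with dox, against 6.67, 7.07 and 6.89 without. These arrays did not overlap, but the difference of -0.34 did not pass (SE 0.16, adjusted p = 0.258). The response to both transgenes was lower than that to MEF2C alone by 2.24 (SE 0.22, adjusted p = 3.7e-08) and lower than that to ICN alone by 1.43 (SE 0.22, adjusted p = 5.5e-05).

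On stroma *POU2F2* fell with MEF2C. It was at 6.10, 5.80 and 5.63 on OP9-GFP with dox, against 6.46, 6.77 and 6.39 without (-0.69, SE 0.16, adjusted p = 0.0054, and 0.071 when these arrays were fitted alone). On OP9-DL1 it was at 6.05, 5.96 and 5.69 with dox, against 6.41, 6.55 and 6.53 without (-0.59, SE 0.16, adjusted p = 0.024). The call on OP9-DL1 was lost when any 1 of 4 of the 6 arrays was left out, with an adjusted p of up to 0.156. The difference of the response between OP9-GFP and medium was -0.36 (95% confidence interval -0.81 to 0.096) and did not pass, so the cultures were not shown to differ. Of the 7 probe sets of *POU2F2*, 6 fell with both transgenes, by 1.54 to 2.58, and 4 fell with MEF2C in medium, by 0.40 to 0.54, among them the probe set of highest variance (-0.51, adjusted p = 0.030). The mean over the probe sets also passed in medium (-0.39, adjusted p = 7.4e-04 in limma). So the gene's side of the threshold in medium depends on the probe set.

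**Figure D2:**
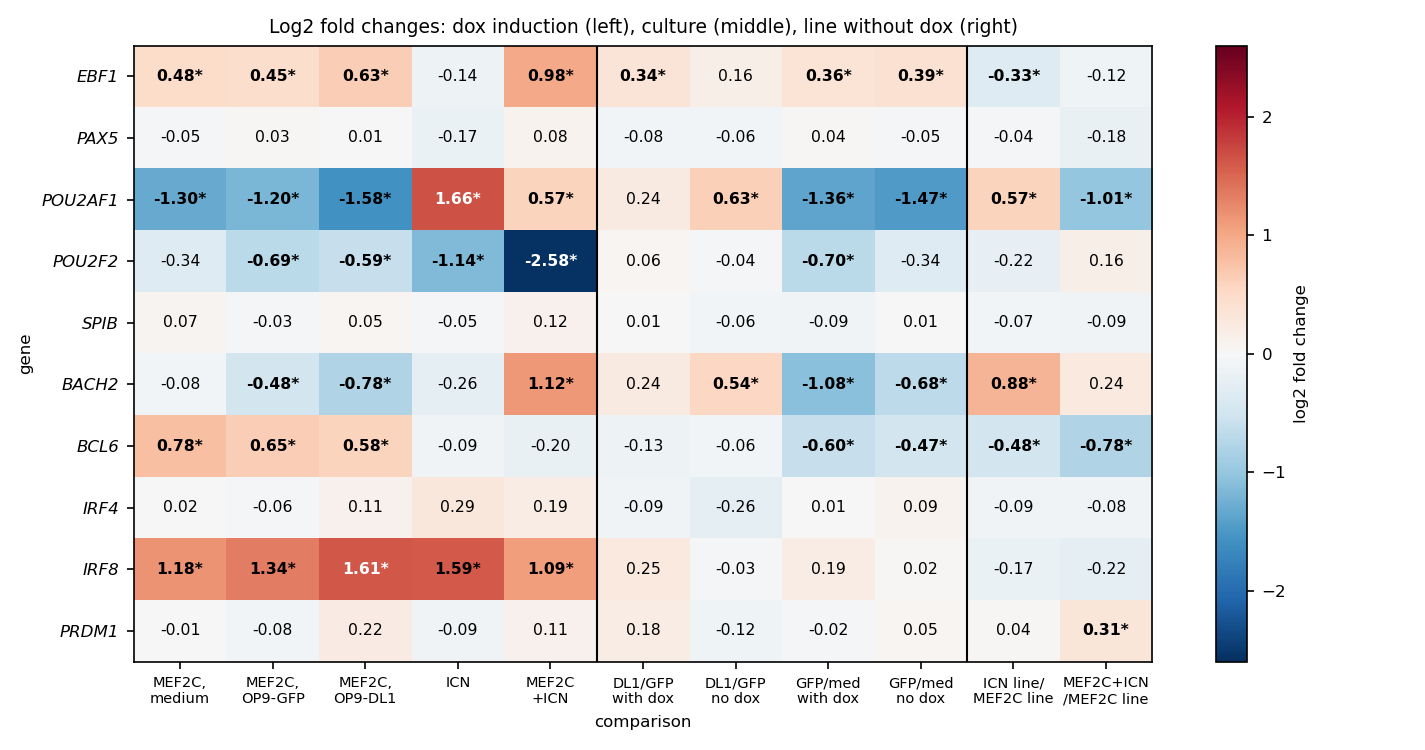
Log2 fold changes of 10 genes (rows) in 11 comparisons (columns), coloured from blue (lower in the group named first) to red (higher), with an asterisk where the adjusted p in limma was under 0.05. The row of IRF8 is positive and called in all 5 dox comparisons, while POU2AF1 is at -1.30 with MEF2C and 1.66 with ICN in medium and the rows of PAX5, SPIB and IRF4 hold no call.

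Of the 10 genes, 2 rose and 1 fell with ICN induced (15.9% of all genes called), and 4 rose and 1 fell with both transgenes (16.8%). The difference between both transgenes and MEF2C alone was called for 5 genes, 3 up and 2 down (10.5%), and that between both transgenes and ICN alone for 4, 2 up and 2 down (10.1%). The difference of the MEF2C response between OP9-GFP and medium was called for none of the 10 (0.491% of all genes) in limma, and 1 of them, *BACH2* at -0.40, had an unadjusted p under 0.05 (0.012). That between OP9-DL1 and OP9-GFP was called for none either (0.131%), and 1, *PRDM1* at 0.30, had an unadjusted p under 0.05 (0.033).

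*BACH2*, a repressor that delays plasma cell differentiation, had opposite responses in the MEF2C line on stroma and in the line with both transgenes. On OP9-GFP it was at 5.96, 6.07 and 5.86 with dox, against 6.45, 6.70 and 6.19 without, and on OP9-DL1 at 6.25, 6.24 and 6.11 with dox, against 6.99, 6.93 and 7.03 without. It fell by 0.48 (SE 0.11, adjusted p = 0.0042) and by 0.78 (SE 0.11, adjusted p = 1.3e-05), and the arrays did not overlap. Fitted on the 6 OP9-GFP arrays alone, the first had an adjusted p of 0.17, and its second probe set was called on OP9-DL1 only. In medium it was at 7.08, 7.17 and 6.88 with dox, against 6.92, 7.32 and 7.14 without, and the arrays overlapped (-0.08, adjusted p = 0.784). Over the 3 cultures its log2 fold change of -0.45 did not pass (adjusted p = 0.207) and had an adjusted p of 0.0026 with culture as a covariate.

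With ICN induced *BACH2* was at 7.82, 7.65 and 7.76, against 8.09, 7.91 and 8.01 without dox, with no overlap but no call (-0.26, SE 0.11, adjusted p = 0.117). With both transgenes it was at 8.59, 8.46 and 8.43, against 7.36, 7.34 and 7.40 without dox, and rose by 1.12 (SE 0.11, adjusted p = 6.6e-09). This rise exceeded the response to MEF2C alone by 1.20 (SE 0.15, adjusted p = 1.7e-06) and that to ICN alone by 1.38 (SE 0.15, adjusted p = 2.1e-07), although neither single transgene raised it. Its second probe set gave 1.02 and 1.05 for these differences, both called. Without dox *BACH2* was higher in the ICN line than in the MEF2C line by 0.88 (adjusted p = 6.6e-07). It was lower on OP9-GFP than in medium by 1.08 with dox (adjusted p = 3.9e-08) and by 0.68 without (adjusted p = 3.2e-05). OP9-DL1 stood above OP9-GFP by 0.54 without dox (adjusted p = 0.0053), and this call was lost without replicate 3 of OP9-GFP without dox (adjusted p = 0.0503) and when the 6 arrays were fitted alone (0.32).

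*BCL6*, a repressor that acts in germinal center B cells, rose with MEF2C alone and not when ICN was induced beside it. In medium it was at 10.28, 10.36 and 10.25 with MEF2C induced, against 9.43, 9.52 and 9.61 without dox. On OP9-GFP it was at 9.73, 9.69 and 9.67 with dox, against 9.03, 9.19 and 8.92 without, and on OP9-DL1 at 9.58, 9.57 and 9.54 with dox, against 8.97, 8.98 and 9.0 without. The arrays did not overlap in any culture, and the log2 fold changes were 0.78, 0.65 and 0.58 (SE 0.07 each, adjusted p = 1.3e-08, 3.5e-07 and 2.1e-06). All 3 probe sets rose over the 3 cultures, by 0.63 to 0.78. On OP9-DL1 2 of the 3 were called, and the lowest change was 0.33.

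With ICN induced *BCL6* was at 8.95, 9.02 and 8.88, against 9.12, 8.95 and 9.03 without dox (-0.09, adjusted p = 0.523). With both transgenes it was at 8.49, 8.52 and 8.61, against 8.67, 8.70 and 8.84 without dox, with no overlap, and the difference of -0.20 did not pass (SE 0.07, adjusted p = 0.065). It had an adjusted p of 0.023 when probe sets with a mean under 5 were left out and 0.027 with a trended and robust variance prior. The response to both transgenes was lower than that to MEF2C alone by 0.97 (SE 0.099, adjusted p = 6.4e-08), and all 3 probe sets gave that call. Without dox *BCL6* was lower in the line with both constructs than in the MEF2C line by 0.78 (adjusted p = 4.6e-09) and lower in the ICN line by 0.48 (adjusted p = 1.1e-05). The other 2 probe sets were not called in either. On OP9-GFP it was lower than in medium by 0.60 with dox and by 0.47 without.

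**Figure D3:**
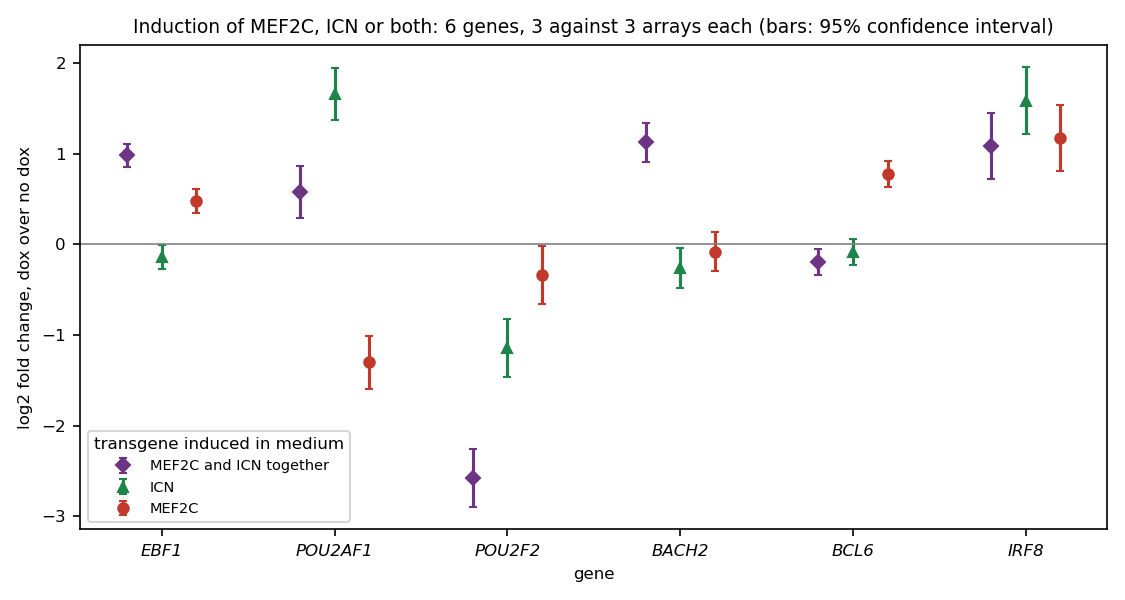
Log2 fold change, dox over no dox (vertical axis), of 6 genes (horizontal axis) for MEF2C and ICN together, ICN alone and MEF2C alone in medium, with 3 against 3 arrays for each point and bars for the 95% confidence interval. IRF8 lies above 1 for all 3, BCL6 rises with MEF2C alone (0.78), and POU2F2 is lowest with both (-2.58).

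*IRF8*, a factor shared by B cells, monocytes and dendritic cells, was the 1 member that rose in every dox comparison. In medium it was at 6.13, 6.24 and 6.29 with MEF2C induced, against 4.88, 5.26 and 4.99 without dox, on OP9-GFP at 6.29, 6.65 and 6.29 with dox, against 5.20, 5.42 and 4.58 without, and on OP9-DL1 at 6.37, 6.89 and 6.69 with dox, against 5.15, 4.83 and 5.13 without. With ICN induced it was at 6.75, 6.21 and 6.42, against 4.73, 4.75 and 5.15 without dox, and with both transgenes at 5.98, 5.95 and 5.79, against 4.80, 4.97 and 4.68 without dox. All arrays with dox lay above all arrays without, across lines and cultures. The log2 fold changes were 1.18 in medium (adjusted p = 5.4e-05), 1.34 on OP9-GFP (adjusted p = 8.8e-06) and 1.61 on OP9-DL1 (adjusted p = 5.2e-07), 1.59 with ICN (adjusted p = 2.5e-07) and 1.09 with both (adjusted p = 5.3e-05), each with an SE of 0.18. The response to both transgenes minus that to ICN alone was -0.50 (95% confidence interval -1.01 to 0.02, adjusted p = 0.278), and minus that to MEF2C alone -0.09 (-0.60 to 0.43). Neither passed. *IRF8* did not differ by call between the cultures or between the lines without dox, and it has 1 probe set, so no other checks it.

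Beside the rise of *IRF8*, the 6 myeloid markers averaged 4.33 to 4.43 in medium with MEF2C induced, against 4.80 to 4.90 without dox, and 2 of 6 fell (*LYZ*, lysozyme, by 0.80 and *FCER1G*, an Fc receptor chain, by 1.07). With ICN induced they averaged 4.17 to 4.32, against 4.39 to 4.43 without dox. Of the 5 plasmacytoid dendritic cell markers none changed with MEF2C over the 3 cultures or in any single culture, and the antiviral factor *IRF7*, the 1 that rose with ICN, rose by 0.71. Of 15 relatives of the members none was called over the 3 cultures with MEF2C. With ICN 4 rose and 2 fell, among them the interferon regulatory factors *IRF5* (-1.19), *IRF1* (0.72) and *IRF7*. With both transgenes *IRF1* rose by 1.32, *IRF5* fell by 1.11 and *PAX2*, a paired box relative of PAX5, fell by 0.96, among 2 that rose and 2 that fell.

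*IRF4* and *PRDM1*, the factors that drive plasma cell formation, passed the test in no dox comparison at their main probe sets. *IRF4* ranged from 4.67 to 5.44 over the 30 arrays and was called in none of the 16 comparisons. Its largest difference upon dox was with ICN, at 5.06, 5.10 and 5.44 with dox, against 4.90, 4.97 and 4.85 without (0.29, 95% confidence interval 0.032 to 0.56, adjusted p = 0.15). These arrays did not overlap. *PRDM1* ranged from 5.10 to 5.86 and was called once, higher in the line with both constructs than in the MEF2C line without dox. There it was at 5.78, 5.38 and 5.58 in the line with both constructs, against 5.21, 5.36 and 5.23 in the MEF2C line (0.31, SE 0.094, adjusted p = 0.017), and leaving out any 1 of 3 of the 6 arrays raised the adjusted p to between 0.058 and 0.156.

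The 3 probe sets of *PRDM1* disagreed. The one dimmest on average was at 6.70, 6.64 and 6.55 in the line with both constructs without dox, against 3.59, 3.48 and 3.52 in the MEF2C line, a difference of 3.10 (adjusted p = 1.2e-14). It stood higher in the ICN line than in the MEF2C line by 1.68 (adjusted p = 1.6e-09). With ICN induced it was at 4.0, 4.30 and 4.0, against 5.41, 5.19 and 5.04 without dox, and it fell by 1.11 (adjusted p = 1.8e-06). With both transgenes it was at 5.85, 5.80 and 5.45, against 6.70, 6.64 and 6.55 without dox, and it fell by 0.93 (adjusted p = 1.8e-05). With MEF2C on OP9-DL1 it was at 4.75, 4.35 and 4.69, against 3.81, 3.48 and 3.68 without dox, and it rose by 0.94 (adjusted p = 5.9e-05). On OP9-GFP it was at 3.37, 2.77 and 2.79 with dox, against 3.29, 3.35 and 3.21 without, and was not called (-0.31, adjusted p = 0.237). The MEF2C response on OP9-DL1 exceeded that on OP9-GFP by 1.25 (SE 0.2, adjusted p = 0.0043), a difference that the main probe set put at 0.30 and did not call. The third probe set was called in none of the 16 comparisons. Which *PRDM1* transcripts each probe set reads is not in the tables used here.

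**Figure D4:**
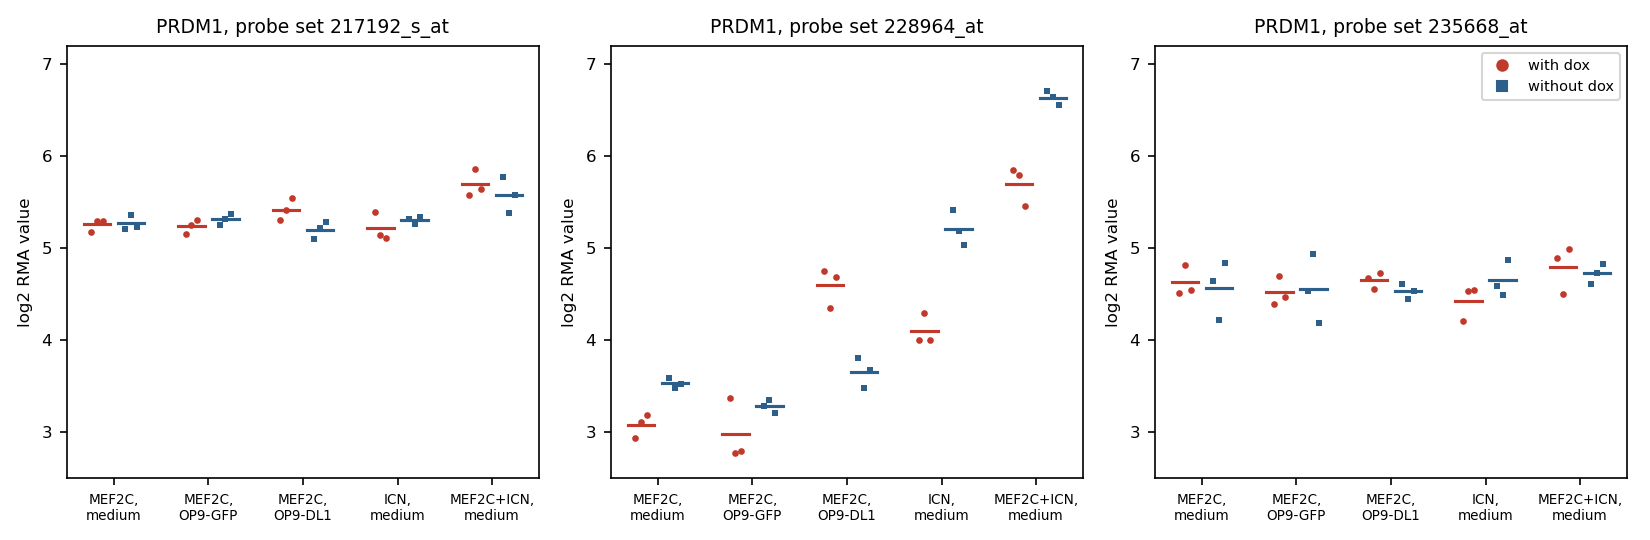
Log2 RMA values (vertical axis, 1 range for all panels) of the 3 PRDM1 probe sets in 30 arrays by line and culture (horizontal axis), red with dox and blue without, with 1 point per array and a bar at the mean of 3. The dimmest probe set lies between 5.04 and 6.70 in the ICN line and the line with both constructs without dox and between 2.77 and 4.75 in the MEF2C line, while the main probe set stays between 5.10 and 5.86.

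Between cultures, 2 of the 10 genes rose and none fell on OP9-DL1 against OP9-GFP without dox (1.63% of all genes called), and with dox 1 rose and none fell (1.4%). On OP9-GFP against medium 1 rose and 4 fell with dox (20.6%), and 1 rose and 3 fell without (22.2%). Between lines in medium without dox, 2 rose and 2 fell in the ICN line against the MEF2C line (25.2%), and 1 rose and 2 fell in the line with both constructs against the MEF2C line (23.9%). Of the 9 Notch targets, 4 were higher, none was lower and 5 were not called in the ICN line against the MEF2C line without dox. In the line with both constructs 2 were higher, 1 was lower and 6 were not called. Among them *HES1* was higher by 4.61 in the ICN line and by 3.75 in the line with both constructs. *DTX1* was higher by 1.55 in the ICN line. What part Notch activity without dox has in the line differences, or in the dox responses of the lines with ICN, was not tested.

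Genes around the members were counted in lists. Of 15 partner transcription factors of the B lineage, 3 rose and 2 fell with MEF2C over the 3 cultures. The lymphoid zinc finger factor *IKZF1* rose by 0.75, the E protein inhibitor *ID3* by 0.56, and *LEF1*, a factor of early lymphocytes, fell by 0.31. With ICN 4 rose and 3 fell: the zinc finger repressor *BCL11A* rose by 1.39 and *ID3* by 0.64, and *IKZF1* fell by 0.42. With both transgenes 7 rose and 2 fell, led by *ID3* (1.35), *BCL11A* (0.78) and the E protein inhibitor *ID2* (-0.67). The list medians were -0.06, 0.04 and 0.19, beside -0.01, -0.03 and 0.02 over all genes.

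Of 15 measured B lineage genes known as targets of EBF1 or PAX5, 1 rose and none fell with MEF2C over the 3 cultures: *RASGRP3*, a Ras activator of B cell receptor signaling, rose by 0.59. Beside the rise of *EBF1*, the surrogate light chain genes *VPREB1* and *IGLL1* had log2 fold changes of -0.16 and 0.04 there, and the B cell receptor chain *CD79A* -0.23, none called. With ICN 1 rose and 3 fell: *VPREB1* fell by 1.48, *IGLL1* by 0.76 and *CD79A* rose by 0.66. With both transgenes none rose and 3 fell, *VPREB1* by 0.81, the receptor chain *CD79B* by 0.44 and *CD72*, a B cell coreceptor, by 0.39.

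Of 10 plasma cell genes 3 rose and 1 fell with MEF2C over the 3 cultures. *JCHAIN*, which joins secreted immunoglobulins, rose by 3.35, the heavy chain gene *IGHM* rose by 1.32, and the elongation factor *ELL2* fell by 0.48. With ICN 3 rose and 3 fell, with *ELL2* at 1.10, *IGHM* at -1.02 and the surface enzyme *CD38* at 0.50. With both transgenes 3 rose and none fell, *CD38* by 0.79, *IGHM* by 0.62 and the secretory chaperone *MZB1* by 0.36. Of 7 measured genes known to be repressed by BCL6 none was called with MEF2C over the 3 cultures. In medium, where *BCL6* rose by 0.78, the activation marker *CD69* fell by 0.38 and the other 6 did not pass. On OP9-GFP the cell cycle inhibitor *CDKN1A* fell by 0.44 and the cyclin *CCND2* by 0.35, and on OP9-DL1 none of the 7 was called. With both transgenes, where *BCL6* did not pass, none rose and 3 fell: *CD69* by 1.98, *CCND2* by 0.53 and *CDKN1A* by 0.39. Of 6 measured germinal center genes none was called with MEF2C over the 3 cultures, and with ICN 2 rose and 1 fell, with *GCSAM* at 1.17, *LMO2* at -0.82 and *RGS13* at 0.66.

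Of the 7 T cell markers 6 fell and none rose with MEF2C over the 3 cultures, and they averaged 7.71 to 7.86 in medium with MEF2C induced, against 8.03 to 8.19 without dox. With ICN 4 rose and none fell, and they averaged 8.74 to 8.97 with dox, against 8.29 to 8.34 without. With both transgenes 1 rose and 1 fell, with averages of 7.73 to 7.87 with dox, against 7.74 to 7.77 without. What part these shifts have in the values of the 10 genes was not tested.

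The genes whose 10 condition means ran most like each member are given as a description, among 1705 genes with a mean of at least 5 and a span of at least 1. They were *SLC44A1* and *FAIM* for *EBF1* (Pearson's r = 0.946 and 0.940), *GAS7* and *BCHE* for *POU2AF1* (0.972 and 0.965), and *CD52* and *MCTP2* for *POU2F2* (0.970 and 0.968). *GFRA1* and *TNFRSF10B* ran most like *BACH2* (0.952 and 0.923), *NRGN* and *PALM* like *BCL6* (0.963 and 0.961), and *ITGB5* and *IRX5* like *IRF8* (0.844 and 0.843). Among the members themselves r ran from -0.81 for *EBF1* with *POU2AF1* to 0.74 for *BACH2* with *POU2AF1*. The 10 points share lines and control conditions.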

How the data were processed

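RNA of 30 LOUCY samples was hybridized to Affymetrix HG U133 Plus 2.0 arrays, 3 per condition. The authors normalized them by RMA (affy 1.64.0 in R 3.6.3, per the submitters' processing notes), and the deposited values are log2 expression values with no counts, depth or detection call, so the number of arrays limits the precision. Here 62 control probe sets were left out and 54613 were fitted with limma 3.58.1 (R 4.3.3), with 1 mean per condition over all 30 arrays. The comparison over the 3 cultures used its 9 arrays with dox and 9 without, with dox as the only term, after the study's methods. p-values were adjusted by Benjamini-Hochberg over all probe sets. The fit was tested on simulated data. Of the probe sets, 41091 have 1 gene symbol, 1801 several and 11721 none in the platform annotation. Named genes were the 10 members, up to 3 called genes with the largest absolute change per list and comparison, defining markers, Notch targets and the 2 genes most like each member whose condition means span 1 or more. The members and lists were chosen with earlier results of these data known. Alternatives were another probe set per gene, the mean over probe sets, a filter on a mean of 5, another variance prior, median centring, repeated quantile normalization, only the arrays compared, culture as a covariate, a replicate block and leaving out each array.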

Additional observations from a re-analysis of the deposited data

Results flagged for a closer look

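Of 40 tests of a difference in response between conditions 9 were called, all between the line with both constructs and a single transgene. The differences of the MEF2C response between cultures, also among the 40, were called for no member at its brightest probe set. Between OP9-DL1 and OP9-GFP 1 of the 4 *EBF1* probe sets was called as a rise, and the 4 ran from -0.33 to 0.59. Over all genes, 10.5% were called against MEF2C alone and 10.1% against ICN alone. Against MEF2C alone in medium the differences in log2 fold change were 1.20 for *BACH2*, -0.97 for *BCL6*, 0.50 for *EBF1*, 1.88 for *POU2AF1* and -2.24 for *POU2F2*. Against ICN alone they were 1.38 for *BACH2*, 1.12 for *EBF1*, -1.08 for *POU2AF1* and -1.43 for *POU2F2*. Each transgene combination is 1 bulk line, so differences between lines and between transgenes cannot be told apart.

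Single arrays stood apart from the others in 3 of 20 groups of 9 arrays of the MEF2C line, where chance flags about 1 in 20. *PAX5* was at 4.85 in replicate 2 on OP9-DL1 without dox, with the nearest array at 5.04. *SPIB* was at 4.50 in replicate 3 in medium with dox, with the nearest at 4.35, and *IRF4* at 4.69 in replicate 1 on OP9-DL1 with dox, with the nearest at 4.96.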

How the results depend on the processing

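Median centring, repeated quantile normalization and the replicate block changed none of 160 member results each. The deposited values were already normalized by RMA, with array medians of 4.75 to 4.84. Centring and repeated normalization therefore had little room to change them. The replicate block kept 5 members called over the 3 cultures, 4 in medium and 6 on each stroma. Same-numbered arrays of different conditions had deviations with r of -0.36 to 0.33 (median 0.0054). Arrays of different numbers had r of -0.35 to 0.48 (median -0.0079), and 14 of the 30 arrays went best with their own number. The numbers were not taken to pair the arrays, and pairing within 1 line alone was not examined. When only the arrays compared were fitted, 3 members were called with MEF2C on OP9-GFP, 0 on OP9-DL1 against OP9-GFP without dox and 0 with dox, from fewer arrays. With the mean over the probe sets of a gene, 1 was called on OP9-DL1 against OP9-GFP without dox. The difference of the MEF2C response between OP9-DL1 and OP9-GFP was called for 1 member, *PRDM1*, with the mean over probe sets and likewise 1 with the probe set of highest variance. Leaving out 1 array gave 0 to 2 members on OP9-DL1 against OP9-GFP without dox, 2 to 4 between the line with both constructs and the MEF2C line, 5 to 6 with MEF2C on OP9-DL1, and the main count elsewhere. Directions reversed for *PRDM1* with both transgenes (-0.93 at the probe set of highest variance, -0.25 for the mean) and for *EBF1* on OP9-DL1 against OP9-GFP with dox (-0.24 at the probe set of highest variance). The cause was not tested.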
